A study of Mus musculus with 2 samples.

Results

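The genes that make, store and take back catecholamines were examined in chromatin of the mouse cell line MN1. They were the 9 genes Th, Dbh, Ddc, Pnmt, Gch1, Slc18a1, Slc18a2, Slc6a2 and Slc6a3, chosen by name for their role and found in the GENCODE M21 annotation among 21911 protein-coding genes. The data are DNase-seq, in which the enzyme DNase I cuts accessible DNA, so that clusters of cuts mark nucleosome-depleted promoters and enhancers. MN1 is an immortalized line of strain B6NCrl, and the labels name no tissue. Both libraries, 2 biological replicates, came from cells given 10 nM methyltrienolone, a synthetic androgen that binds the androgen receptor. They form 1 group, and no untreated library was analysed here, so no value below is an effect of the androgen and none was tested between conditions.

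Catecholamines are built from tyrosine. Tyrosine hydroxylase (Th) makes L-DOPA in the rate-limiting step with tetrahydrobiopterin as cofactor, aromatic L-amino acid decarboxylase (Ddc) makes dopamine, dopamine beta-hydroxylase (Dbh) makes noradrenaline inside vesicles and phenylethanolamine N-methyltransferase (Pnmt) makes adrenaline. GTP cyclohydrolase (Gch1) opens the synthesis of the cofactor, the vesicular transporters Slc18a1 and Slc18a2 load amines into vesicles, and the plasma membrane transporters Slc6a2 and Slc6a3 take back noradrenaline and dopamine. Noradrenergic neurons, dopaminergic neurons and the chromaffin cells of the adrenal medulla each use a different subset of these genes, with Ddc and Slc18a2 also used by serotonergic neurons.

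The authors deposited, for each library, peaks of 150 bp with a score from 1 to 150, and wider hotspots with the −log10 of a false discovery rate. No source used here gives the meaning of the score, so it ranks peaks within a list, and a percentile below is the share of that replicate's peaks at or below a score. On the main chromosomes 189648 peaks were analysed in replicate 1 and 170745 in replicate 2, with median scores of 53 and 51. The read depth is unknown. Peaks that overlapped between the replicates were merged into 127807 shared regions. A region within 1 kb of any annotated transcription start site (TSS) of a gene is called a promoter region of it, one elsewhere in the gene a body region, and one within 50 kb outside it a flank region. Positions are mm10, and distances run from the middle of a region to the main TSS unless said otherwise, with minus signs upstream.

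Of the 9 genes, 3 had a shared promoter region, namely Gch1, Pnmt and Slc18a1 (33.3%, 95% Wilson interval 12.1% to 64.6%, which covers counting error only), against 59.5% of all protein-coding genes. Promoter peaks were present at 4 of the 9 in replicate 1, against 61.9% of all genes, and at 5 in replicate 2, against 60.8%. The interval of the shared count includes the background, so with 9 genes the share was not set apart from it. With a window of 2.5 kb the count was 6 of 9, adding Th, Dbh and Ddc, against 63.4% of all genes. Body regions were present in 7 of the 9 genes (77.8%, interval 45.3% to 93.7%), against 48.6% of all genes. That interval also includes the background, and among genes with at least 10 kb of body outside promoter windows, a class that holds 8 of the 9, the share over all genes was 69%. All 9 had a shared region in the gene or within 50 kb, against 84.1% of all genes. In all, 136 shared regions lay in or near the 9 genes, 7 of them in promoters, 44 in bodies and 85 in flanks.

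The sequences that carry these observations are the open promoters, the main starts of Th and Slc18a2, at which no peak was called, and a body site of each of the 4 genes without an open promoter whose bodies were densest in regions, taken as the one with the highest lower percentile over both replicates. They were read from the GRCm38 genome on the strand of the gene, and the promoter parts of Th and Slc18a2 come from the RefSeq promoter table of GRCm38.p6. Exonic bases of the genes were left out of the promoter regions of Gch1 and Slc18a1. Capitals mark some of the motifs searched, each on either strand. They are the cyclic AMP response element (CRE) TGACGTCA, the AP-1 site TGACTCA, the GC box GGGCGG, the CCAAT box, the GATA site AGATAA and the steroid receptor hexamer AGAACA. The E-box CANNTG and, outside the CRE, the shorter TGACG were also searched but are left in lower case. In the starts of Th and Slc18a2 the capitals mark the CRE alone.

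Gch1 promoter (chr14:47189414-47189545, minus strand): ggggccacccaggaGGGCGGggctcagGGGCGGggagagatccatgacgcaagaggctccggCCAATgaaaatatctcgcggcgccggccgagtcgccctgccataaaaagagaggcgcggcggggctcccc

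Pnmt promoter (chr11:98385916-98386085, plus strand): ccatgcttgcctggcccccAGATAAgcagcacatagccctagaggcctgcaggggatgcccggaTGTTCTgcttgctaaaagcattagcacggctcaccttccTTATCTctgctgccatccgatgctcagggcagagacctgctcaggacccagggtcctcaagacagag

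Slc18a1 promoter (chr8:69089236-69089365, minus strand): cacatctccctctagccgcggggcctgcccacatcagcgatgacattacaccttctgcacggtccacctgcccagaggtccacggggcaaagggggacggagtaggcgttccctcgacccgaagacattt

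Th start, no peak (chr7:142900015-142900245, minus strand): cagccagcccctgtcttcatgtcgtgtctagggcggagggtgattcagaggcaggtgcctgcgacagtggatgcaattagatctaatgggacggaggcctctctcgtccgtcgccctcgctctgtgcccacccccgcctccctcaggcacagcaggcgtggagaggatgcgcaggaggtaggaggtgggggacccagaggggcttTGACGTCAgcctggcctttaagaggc

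Slc18a2 start, no peak (chr19:59260628-59260881, plus strand): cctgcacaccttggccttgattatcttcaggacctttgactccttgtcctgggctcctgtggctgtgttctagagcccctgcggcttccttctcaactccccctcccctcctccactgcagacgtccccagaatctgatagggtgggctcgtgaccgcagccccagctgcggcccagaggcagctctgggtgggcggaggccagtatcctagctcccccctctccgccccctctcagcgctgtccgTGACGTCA

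Th intron (chr7:142918796-142918965, minus strand): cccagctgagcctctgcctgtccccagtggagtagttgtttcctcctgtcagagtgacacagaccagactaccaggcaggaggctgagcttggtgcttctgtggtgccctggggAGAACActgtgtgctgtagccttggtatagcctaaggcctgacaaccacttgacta

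Ddc intron (chr11:11844536-11844705, minus strand): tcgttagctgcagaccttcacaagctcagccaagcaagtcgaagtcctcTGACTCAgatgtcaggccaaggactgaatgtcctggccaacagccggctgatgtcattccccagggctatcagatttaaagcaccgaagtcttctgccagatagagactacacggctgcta

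Dbh intron (chr2:27167136-27167285, plus strand): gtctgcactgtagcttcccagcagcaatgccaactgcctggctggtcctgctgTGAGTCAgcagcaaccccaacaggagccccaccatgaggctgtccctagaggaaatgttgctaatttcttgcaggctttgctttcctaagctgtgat

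Slc18a2 intron (chr19:59267476-59267625, plus strand): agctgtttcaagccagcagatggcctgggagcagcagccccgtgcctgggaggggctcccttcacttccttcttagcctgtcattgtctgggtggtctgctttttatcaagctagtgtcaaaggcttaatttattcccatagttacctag

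Among the enzymes, Th had no shared region at any of its 6 annotated starts and a row of strong sites upstream of its main TSS. The gene (chr7:142892752-142931128, minus strand) is annotated over 38377 bp because some transcripts begin far upstream, so these sites count as intronic while lying before the main TSS. The strongest, at −18867 bp, scored 142 in replicate 1 and 135 in replicate 2, at percentiles 97.5 and 97.6. A neighbour at −16357 bp scored 134 and 122, another at −19317 bp scored 120 and 97, and one at −5787 bp scored 107 and 101. All 4 had percentiles of at least 84.9 in both replicates, and no peak of either replicate overlapped the main TSS. Nearest to any start was a weak region 1242 bp away with a score of 46 in both replicates. Inside the transcribed part, an intronic region 5123 bp downstream of the main TSS scored 77 and 80, and one over a coding exon at 6003 bp scored 34 and 32. The peaks inside the 1 kb windows of Th were at different places, with a score of 29 in replicate 1 at 2383 bp and 26 in replicate 2 at 3623 bp, each in a narrow hotspot whose −log10 false discovery rate was 1.62 and 1.75, near the lowest the authors list.

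Dbh, the enzyme that separates noradrenergic from dopaminergic cells, had no promoter peak in either replicate and 4 intronic regions (gene at chr2:27165233-27183200, plus strand). The one nearest the main TSS, 1978 bp downstream, scored 97 in replicate 1 and 78 in replicate 2. The others scored 83 and 36 at 2888 bp, 100 and 61 at 10698 bp, and 108 and 75 at 16898 bp. All 4 ranked higher in replicate 1, by 6.4 to 43.7 percentile points. A flank region 2482 bp upstream, 48 bp from the start of the antisense transcript Dbhos, scored 67 and 65. The region at 10698 bp lay 1088 bp from an internal annotated start of Dbh, just beyond the window, and in replicate 1 its hotspot of 629 bp with the highest listed value of 100 reached into that window.

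Ddc, the decarboxylase shared by dopamine and serotonin synthesis, carried the strongest site of the group outside promoters. The gene (chr11:11814101-11898144, minus strand) had 12 body regions over 84044 bp and 10 annotated starts, none with a shared region. An intronic region 53423 bp downstream of the main TSS scored 149 in replicate 1 and 143 in replicate 2, at percentiles 99.8 and 99.5. Of the others, an intronic region at 47393 bp scored 130 and 122, and one at 77583 bp scored 130 and 112. The remaining 9 had scores from 59 to 92 in replicate 1 and from 45 to 87 in replicate 2. Several of these 9 lie where the noncoding gene 1700042O10Rik overlaps Ddc, and 2 are within 1 kb of its start, so they cannot be assigned to Ddc by position. Upstream, an intergenic region at −3607 bp scored 139 and 105. A peak within 1 kb of an internal start was present in replicate 2 alone, with a score of 52.

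Pnmt, which completes adrenaline synthesis and is otherwise known from chromaffin cells, had an open promoter and no body region in its 1732 bp (chr11:98386450-98388181, plus strand). Its promoter region, 449 bp upstream of the TSS, scored 107 in replicate 1 and 100 in replicate 2, and its hotspot was 551 bp and 595 bp wide. The TSS itself held no peak, and a weaker region 1219 bp upstream, just outside the window, scored 31 and 38. Pnmt lies between Stard3 and Pgap3 in a region with many open starts. The region at the start of Stard3 and 1700003D09Rik scored 138 and 122, and that at a start of Pgap3 scored 131 and 113.

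Gch1, the cofactor enzyme, was the one gene of the 9 whose own main TSS lay under a region with no other gene's start beside it. The region (chr14:47189356-47189545) scored 116 in replicate 1 and 120 in replicate 2, and a second over the first coding exon, 362 bp downstream, scored 100 and 75. The hotspot that spans both was 1149 bp wide in replicate 1 and 1023 bp in replicate 2. In its body (gene at chr14:47153895-47189413, minus strand) the strongest of 4 regions, at 11352 bp, scored 137 and 110 and lay inside the processed pseudogene Gm18811 within an intron. Beyond the end of the gene, 7 intergenic regions stood between 52552 bp and 59992 bp from the TSS, with the highest at 147 and 137 (percentile 98.1 in the replicate where it ranked lower). No annotated start lay within 10 kb of that group, the nearest being that of Gm49132.

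**Figure D1:**
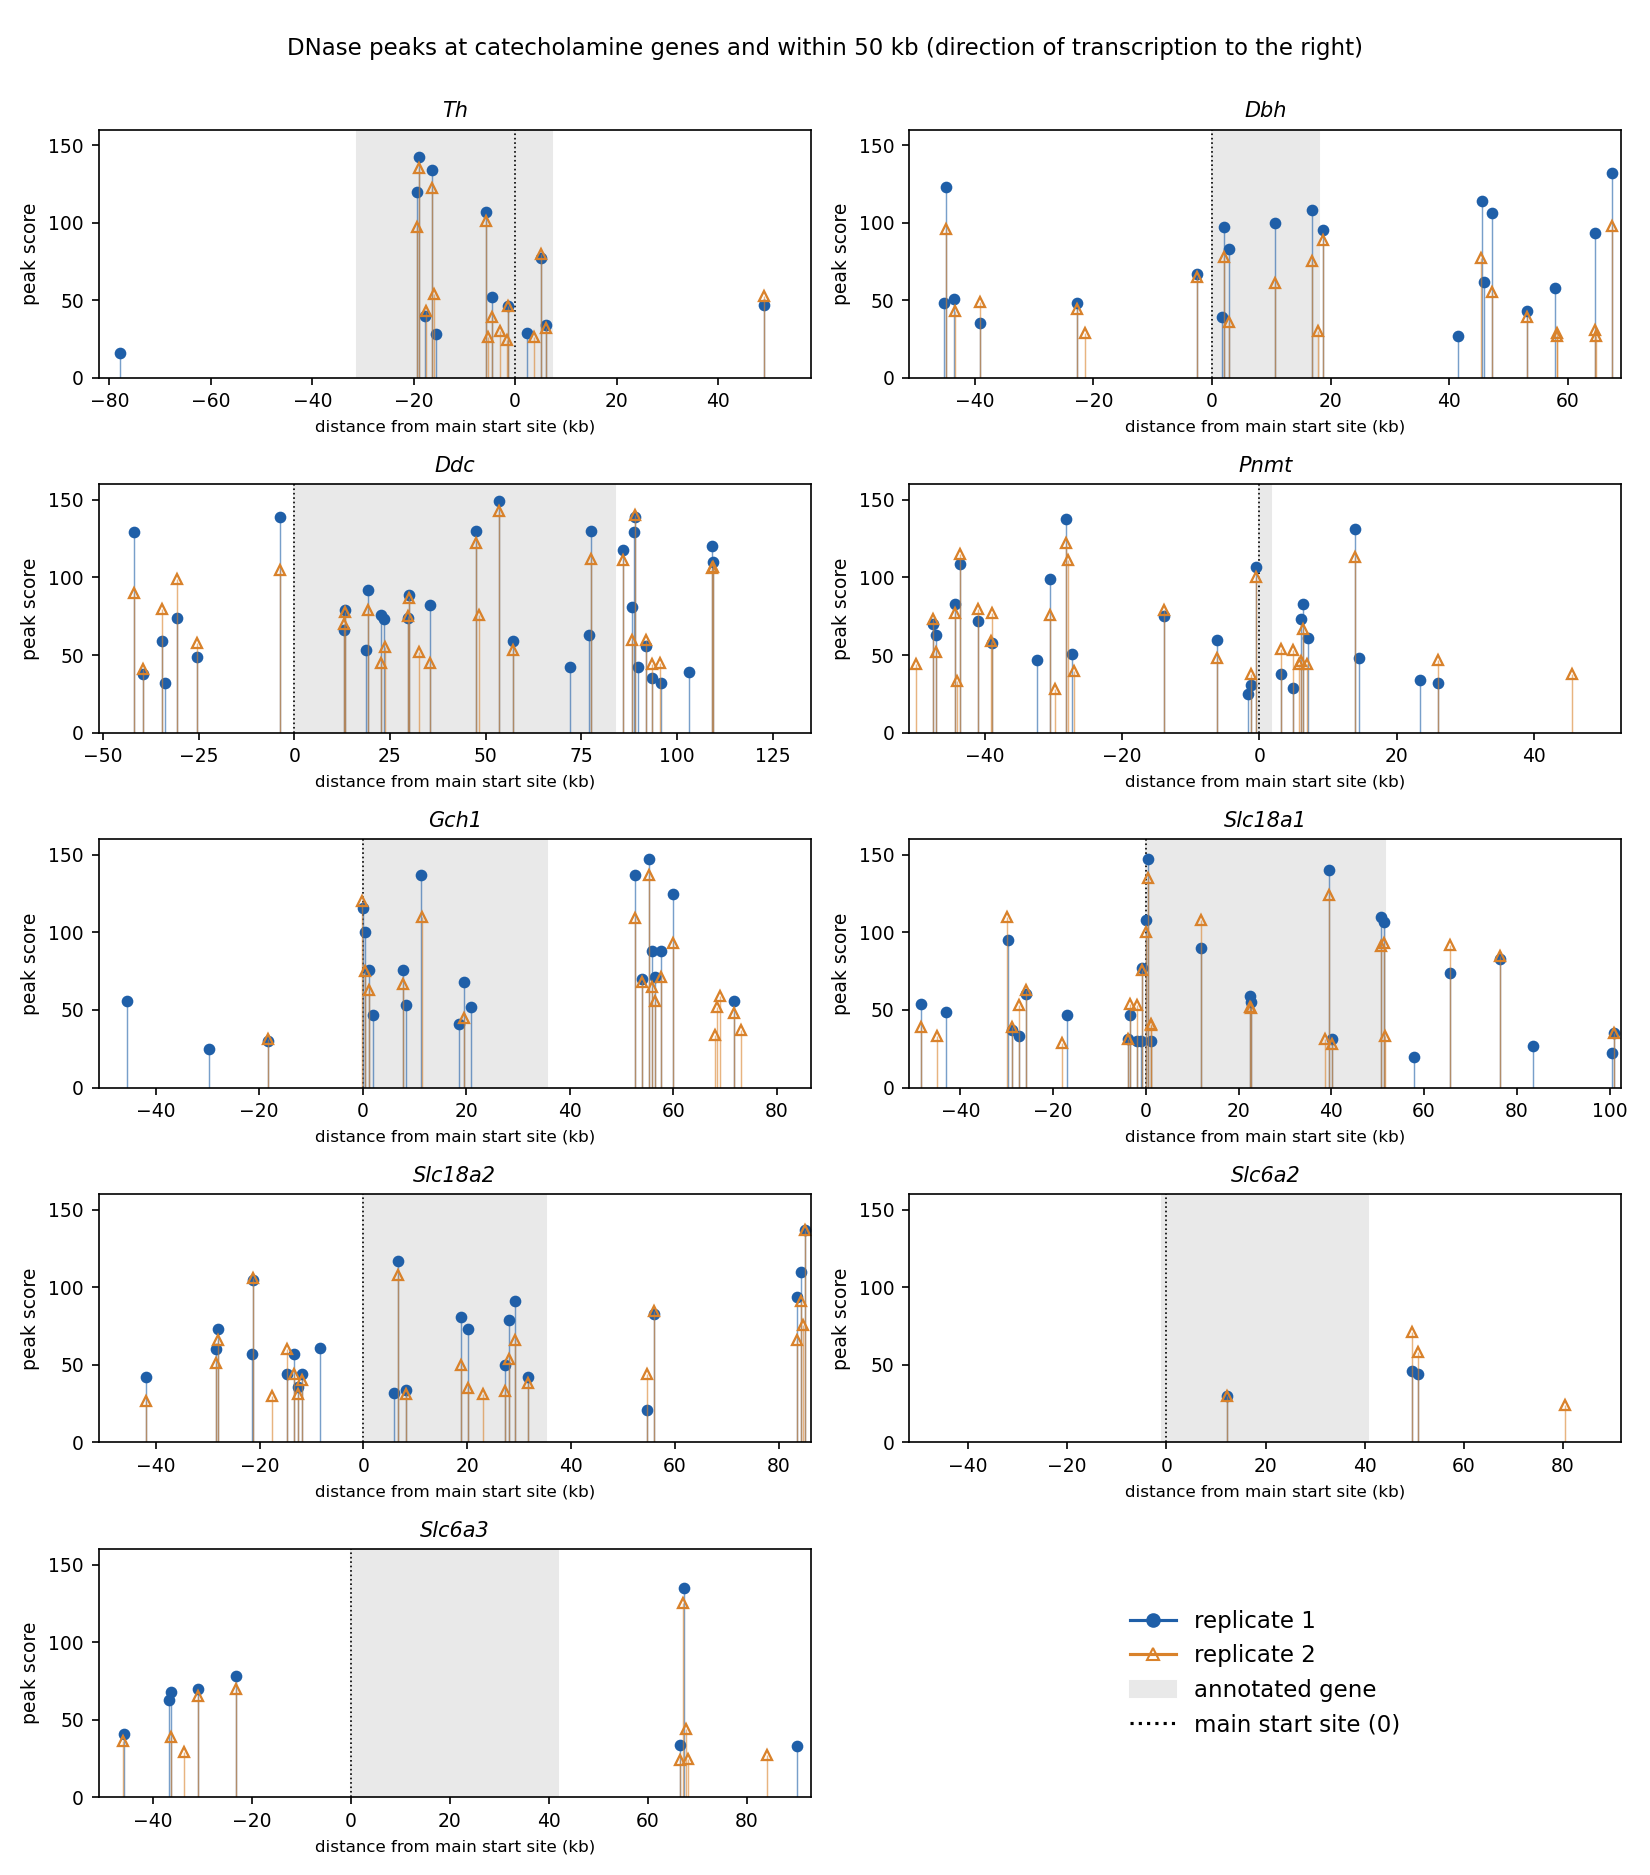
Peaks in and within 50 kb of each of the 9 genes, with distance from the main TSS in kb on the horizontal axis, the direction of transcription to the right, and the authors' peak score on the vertical axis, replicate 1 as filled circles and replicate 2 as open triangles; grey marks the annotated gene. Th shows its highest peaks (142 and 135) left of the start inside the grey span, Ddc its highest (149 and 143) deep in the gene, and Slc6a3 has no peak in the grey span.

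The vesicular transporters differed at their promoters. Slc18a1, the form known from chromaffin and other endocrine cells, had 4 promoter regions, whereas Slc18a2, the neuronal form, had none. At the own TSS of Slc18a1 (gene at chr8:69037711-69089235, minus strand) there was a region with scores of 108 (replicate 1) and 100 (replicate 2). The highest promoter region, 147 and 135, lay 25 bp from the start of Atp6v1b2, a subunit of the proton pump that acidifies vesicles, which starts close by on the other strand. It is counted for Slc18a1 through the 1 kb window, and position alone cannot assign it. A region at −729 bp scored 77 and 76, and one at an internal start scored 90 and 108. The regions at the own TSS and at −729 bp lay in an intron of Atp6v1b2. In replicate 1 a hotspot of 1222 bp joined the own TSS to the start of Atp6v1b2. In replicate 2 a hotspot of 2159 bp spanned both and the region at −729 bp. Position alone cannot separate these from Atp6v1b2 either. Only the region at the internal start lay in Slc18a1 and away from Atp6v1b2. The body held 7 regions, the strongest an intronic one 39591 bp downstream with 140 and 124, and 2 over the untranslated end with 107 and 93, and 110 and 91.

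Slc18a2 (chr19:59260896-59296012, plus strand) held 8 intronic body regions. The strongest, 6655 bp downstream of the main TSS, scored 117 in replicate 1 and 108 in replicate 2. It was also the shared region nearest to any start of the gene, with 6517 bp between it and the nearer of 2 annotated starts. The other 7 scored from 34 to 91 in replicate 1 and from 31 to 66 in replicate 2. In 7 of the 8 the percentile was higher in replicate 1, with a median difference of 14.3 points.

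The plasma membrane transporters were the most sparsely marked of the group. Slc6a2, the noradrenaline transporter (chr8:92960079-93001667, plus strand), had 1 body region, in an intron 12168 bp downstream, with a score of 30 in both replicates, at percentiles 19.6 and 18.8. Slc6a3, the dopamine transporter (chr13:73536747-73578672, plus strand), had no peak in either replicate over its 41926 bp. Its nearest shared region lay 23222 bp upstream at an internal start of Lpcat1 and scored 78 and 70. On the other side, the start of Clptm1l scored 135 and 125.

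**Figure D2:**
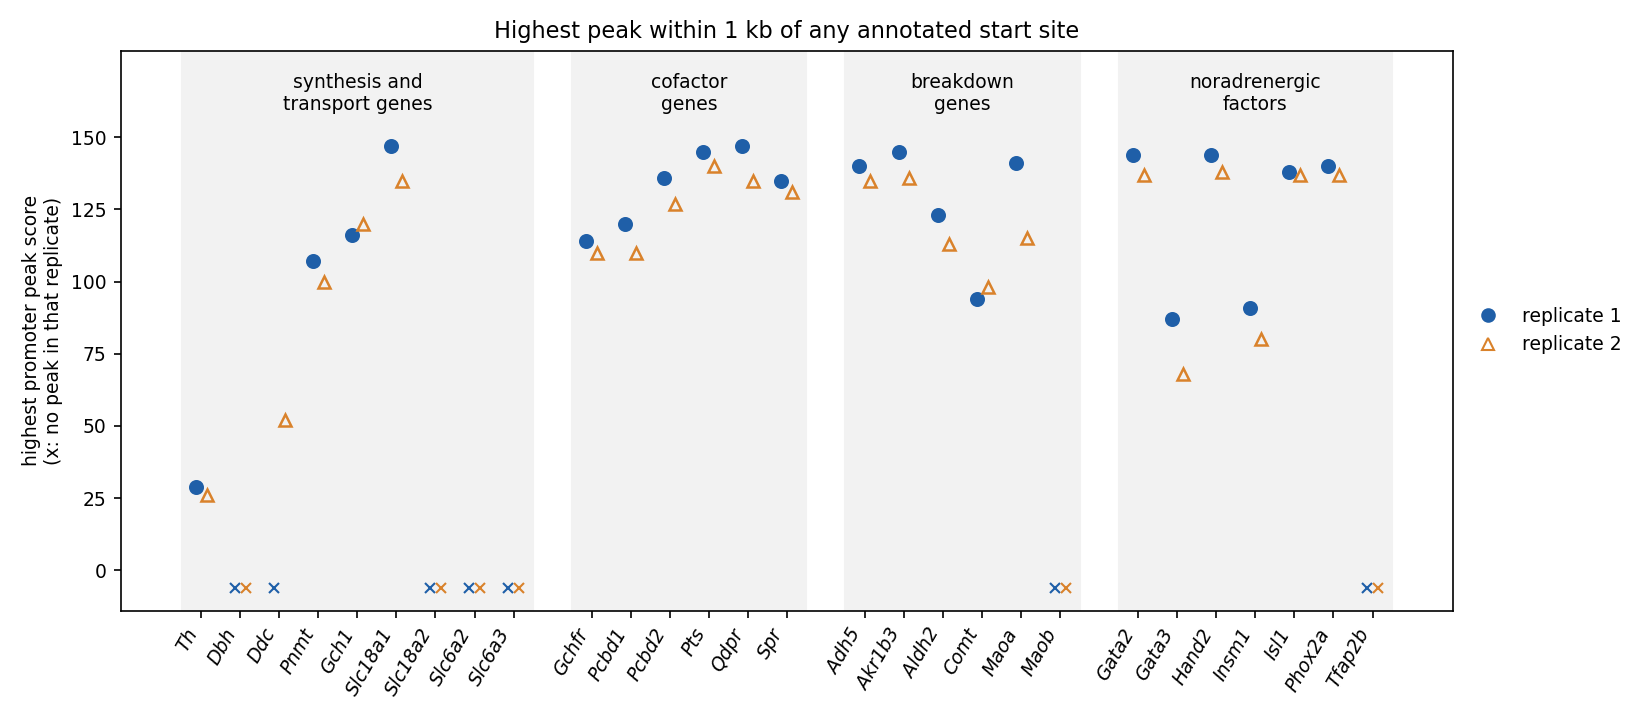
Highest peak score within 1 kb of any annotated TSS in replicate 1 (filled circles) and replicate 2 (open triangles) for the 9 genes and for genes of the cofactor, breakdown and noradrenergic factor lists, with crosses where a replicate had no peak. Dbh, Slc18a2, Slc6a2 and Slc6a3 have crosses in both replicates, and the Slc18a1 values of 147 and 135 lie at the start of Atp6v1b2.

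The 3 open promoters were set within all open protein-coding promoters by the lower of their percentiles in the replicates, whose median over open genes was 94.8. By this measure Slc18a1 stood above 74.7% of open genes or level with them, Gch1 26.6% and Pnmt 21%. Gch1 and Pnmt were thus in the lower part of open promoters, and the place of Slc18a1 rests on the region at Atp6v1b2.

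Density of body regions separated the 6 genes without an open promoter. Over genes with at least 10 kb of body outside promoter windows, the 8 members in that class had a median of 1.57 shared regions per 10 kb, against 0.445 over all 12632 such genes. Among the 3956 of these genes that lacked a shared promoter region, 40.8% had any body region. Dbh had 2.67 regions per 10 kb, at percentile 98.6 of those 3956 genes. Th had 2.4 (percentile 98.2), Slc18a2 had 2.35 (percentile 98) and Ddc had 1.65 (percentile 95.6). Slc6a2 with 0.252 and Slc6a3 with 0 lay at percentiles 72 and 59.2. Th, Dbh, Ddc and Slc18a2 thus held many shared regions within their annotated bounds and none within 1 kb of their starts. Slc6a2 and Slc6a3 held few or none. For Th the density includes regions from −1317 to −19317 bp, upstream of its main TSS. These lie in the annotated gene only through transcripts that begin far upstream, while the regions at 5123 and 6003 bp lie downstream. The density of Ddc counts regions that lie in 1700042O10Rik: when regions in another gene or within 1 kb of its start were left out for all genes, Ddc had 0.686 regions per 10 kb (percentile 88.6), while Th, Dbh and Slc18a2 had the same density as before. With those regions kept, all 4 genes stayed above the 90th percentile with the stronger 50% of peaks, with an overlap of 75 bp, with hotspots and in either replicate alone. These alternatives were chosen after the data were seen. The promoter window was not varied for this density. With a window of 2.5 kb, Th, Dbh and Ddc had a shared promoter region and would leave this class, so the grouping depends on the window of 1 kb.

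**Figure D3:**
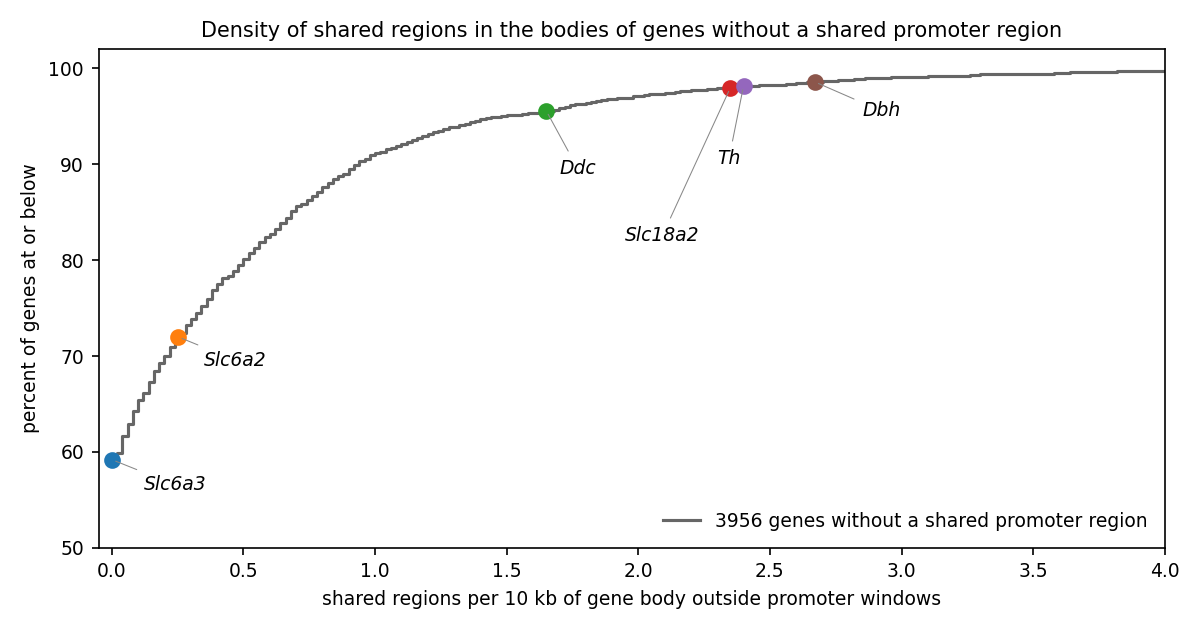
Cumulative share of the 3956 protein-coding genes without a shared promoter region and with at least 10 kb of body (vertical axis, percent at or below) by shared regions per 10 kb of gene body (horizontal axis), with the 6 catecholamine genes of that class as points. Ddc, Slc18a2, Th and Dbh lie from 1.65 to 2.67 regions per 10 kb, at or above percentile 95.6, and Slc6a2 and Slc6a3 lie at 0.252 and 0.

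Most body regions, 37 of 44, had their midpoint in an intron, and 7 had it in an exon, counting exons of overlapping noncoding genes. Only 4 of the 44 were within 1 kb of the start of another gene, at 1700042O10Rik, Gm18811 and Atp6v1b2. In 7 of the 44 (15.9%), the percentile was at least 90 in both replicates, against 4.98% of the body regions of all protein-coding genes and 11.7% of all shared regions. Of the 7, there were 2 in Th, 3 in Ddc, 1 in Gch1 and 1 in Slc18a1. Counting gene and flanks together, the density was 18.7 shared regions per 100 kb at Pnmt, 15.5 at Slc18a2, 14.5 at Slc18a1, 14.1 at Ddc, 12.7 at Dbh, 11.1 at Gch1, 6.5 at Th, 4.23 at Slc6a3 and 2.12 at Slc6a2. The median was 12.7 over the 9 genes and 8.78 over all genes. Of the 85 flank regions, 23 lay within 1 kb of the start of another gene and 51 were more than 2.5 kb from any start. Among the former, the start of Fignl1 beside Ddc scored 139 and 140, and that of Pdzd8 beside Slc18a2 scored 137 and 137.

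The replicates gave the same picture at most sites. Each had 63 peaks in the promoters and bodies of the 9 genes. Of these 51 were shared in replicate 1 (81%, 95% Wilson interval 69.6% to 88.8%), against 68.7% of all peaks, and 52 in replicate 2 (82.5%, 71.4% to 90%), against 76.7%. The intervals count peaks as independent although they cluster in 9 genes, and the peaks were not matched by score to all peaks. The 12 and 11 peaks that were not shared had median scores of 41.5 and 31, against 82 and 72.5 in the shared ones. The share of hotspots there with the highest listed value of 100 was 60.7% in replicate 1, against 46.9% of all hotspots, and 47.2% in replicate 2, against 44.7%. Among the 51 shared promoter and body regions, 35 ranked higher in replicate 1 (68.6%), against 57.1% of all shared regions, with median differences of 3.3 and 1.23 percentile points. The labels name sequencing instruments for replicate 1 but not for replicate 2, and any effect of the instrument cannot be told apart from the replicate.

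The genes around the pathway were described from 6 lists of 50 genes, of which 30 had a shared promoter region. All 7 cofactor genes were open (100%), among them Pts, the second enzyme of tetrahydrobiopterin synthesis, with scores of 145 in replicate 1 and 140 in replicate 2, and Qdpr, which regenerates the cofactor, with 147 and 135. Of the 6 breakdown genes 5 were open (83.3%). Akr1b3, an aldehyde reductase, scored 145 and 136, Adh5, an alcohol dehydrogenase, scored 140 and 135, and Maoa, a monoamine oxidase, scored 141 and 115, while the related Maob had no promoter peak. Over all protein-coding genes the share was 59.5%.

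Receptors and uptake transporters were mostly without promoter regions, whereas 59.5% of all protein-coding genes had one. Neither list was tested against that share, and the transporter list held only 5 genes. Of 14 adrenergic and dopamine receptor genes 4 were open (28.6%), with 133 and 120 at Adra2b, 78 and 73 at Drd4, and 64 and 54 at Drd1. Those without a peak in either replicate included Adra1a, Adra1b, Adra1d, Adra2a, Adra2c, Adrb1, Adrb3, Drd2 and Drd5. Of 5 other transporters that carry catecholamines 2 were open (40%), Slc29a4 with 125 and 111 and the serotonin transporter Slc6a4 with 67 and 55, whereas Slc22a2 and Slc22a3 had no peak.

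The transcription factors of noradrenergic cells were open at 8 of 9 promoters (88.9%), against 59.5% of all protein-coding genes, a difference that was not tested. The median lower percentile of these open promoters was 85.7, against 94.8 over all open genes. Hand2 scored 144 in replicate 1 and 138 in replicate 2, Gata2 scored 144 and 137, and Phox2a, a homeodomain factor known to act at the Dbh promoter, scored 140 and 137, while Tfap2b had no peak. The factors of midbrain dopaminergic neurons were open at 4 of 9 (44.4%), with 131 and 135 at Nr4a2, an orphan nuclear receptor needed for dopaminergic neurons, 100 and 92 at the forkhead factor Foxa1 and 99 and 88 at the homeodomain factor Pitx3. En1, En2, Foxa2, Lmx1a and Lmx1b had no promoter peak. Of markers of other cells, all 6 pan-neuronal and all 5 serotonergic genes were open, as were 5 of 7 motor neuron genes, 3 of 5 fibroblast genes, 2 of 6 glial genes and 1 of 4 adrenal cortex genes. Over all protein-coding genes the share was 59.5%, which the fibroblast share (60%) matched, and these short lists were not tested against it. The open serotonergic promoters had a median lower percentile of 67, against 95 for the pan-neuronal ones. These lists share Gata2, Gata3, Isl1 and Slc6a4.

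Promoter state was set beside base composition, since CpG-rich starts are open in most cells. In the 1 kb around the start of each gene that was richest in them, the 9 genes held 15 CpG dinucleotides at Ddc, 18 at Dbh, 22 at Th, 44 at Pnmt, 48 at Slc6a3, 57 at Slc18a1, 60 at Slc18a2, 70 at Gch1 and 75 at Slc6a2, against a median of 50 over all genes. Th, Dbh and Ddc fell in the second quintile of genes by this count, where 38.4% of genes were open. Pnmt, Slc18a1, Slc6a3 and, at its upper edge, Slc18a2 fell in the third, where 78.9% were open, and Gch1 and Slc6a2 in the fourth, where 86.8% were open. The starts of Slc18a2, Slc6a3 and Slc6a2 thus lacked a region in classes where most genes were open, whereas in the class of Th, Dbh and Ddc most genes were not open. The share of 32-base words that occur once in the genome was 95.6% to 100% over the promoter windows of each of the 9 genes, and 81.3% in the Slc18a1 region at its internal start, which holds a CA repeat.

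**Figure D4:**
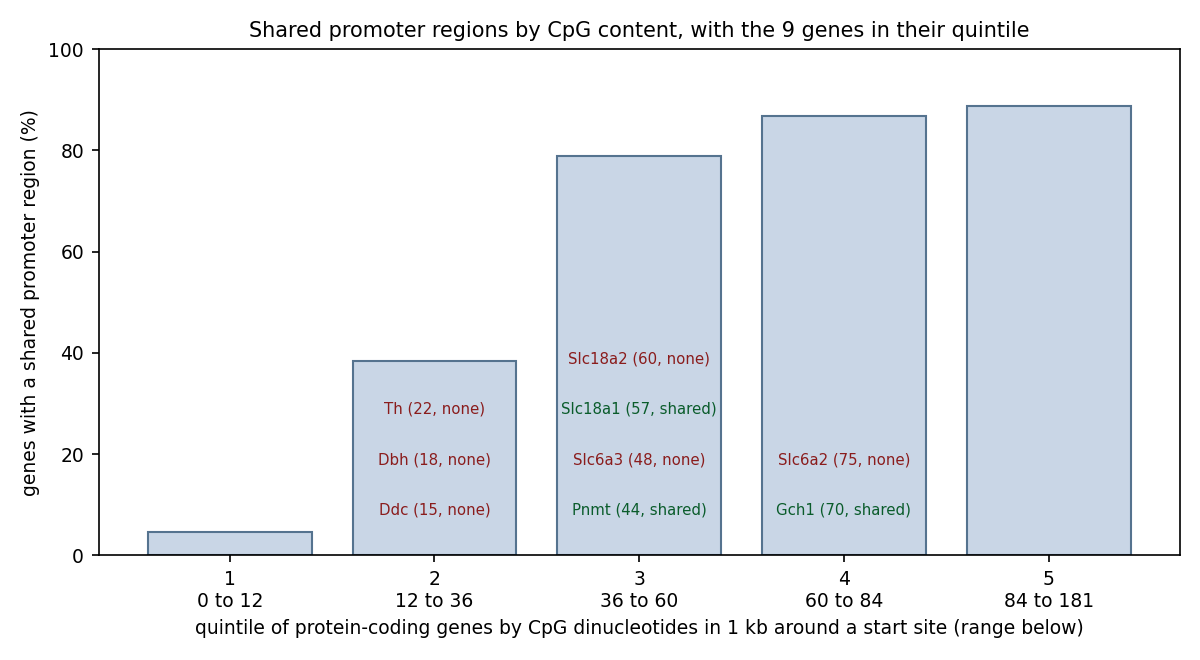
Percent of protein-coding genes with a shared promoter region (vertical axis) in each quintile of CpG dinucleotides per 1 kb around a start (horizontal axis), with each of the 9 genes written in its quintile with its CpG count and whether it had a shared region. Th, Dbh and Ddc stand in the quintile with 38.4% open, and Slc18a2, Slc6a3 and Slc6a2, without a region, stand where 78.9% and 86.8% were open.

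RefSeq promoters were at hand for 6 of the 9 genes, and Pnmt, Slc18a1 and Slc6a2 had no entry. The full CRE, bound by CREB and related factors, was found in those of Th, 45 bases before the RefSeq start, and Slc18a2, beginning 4 bases before it, against 1.79% of 32817 RefSeq promoters of 300 bases. Neither start had a peak in either replicate. None of the 51 promoter and body regions held a full CRE in its central 150 bases. The full CRE was in only 0.47% of 76125 distal shared regions, so its absence from 51 regions says little. The Gch1 promoter, under a peak in both replicates, held a CCAAT box at −70 and GC boxes at −118 and −105, visible in the sequence above. The CCAAT box was in 37.4% of all RefSeq promoters and the GC box in 35.6%.

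In the central 150 bases of the 51 regions, the AP-1 site occurred in 7 (13.7%), against 14.5% of 76125 distal shared regions and 2.71% of their flanks. It was present in the printed regions of Dbh and Ddc. The GATA site occurred in 10 of 51 (19.6%), against 9.5% of distal regions and 8.02% of flanks, and the Pnmt promoter region printed above holds 2 copies. The steroid receptor hexamer AGAACA occurred in 9 (17.6%), against 16% of distal regions and 12.8% of flanks, and the printed regions of Pnmt and Th hold 1 each. The E-box CANNTG, a site of helix-loop-helix factors such as Hand2, occurred in 31 (60.8%), against 65.1% and 56.5%. The CRE overlaps the shorter TGACG, which was in 2 of the 51 regions (3.92%), against 7.33% of distal regions. A match of these letters is not evidence of binding, and no test was made on the 51 regions.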

How the data were processed

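DNase-seq of 2 biological replicates of MN1 was analysed from the deposited files. Both kinds of file were made for each library separately, without pooling, from its filtered reads aligned to mm10 together with a further input, per the deposited listing. No source used here names the aligner, the caller or their versions. Peak values are a score deposited by the authors, of unstated meaning, and hotspot values are the −log10 of a q-value (false discovery rate) deposited by the authors, with 100 as the highest written. Reads, signal and depth were not used here, so no interval on depth is given, and Wilson intervals cover counting error only.

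Repeated peaks and peaks off the 21 main chromosomes were left out. Peaks that overlapped by at least 1 bp between replicates were merged into shared regions and placed against the GENCODE M21 annotation. A promoter is within 1 kb of any TSS of a gene, and flanks reach 50 kb. The main TSS is that of the transcript numbered lowest. Body density was computed for genes with at least 10 kb of body outside promoter windows. Both strands of the central 150 bases of each region were searched for motifs, as were RefSeq promoters of 300 bases. Counts of genes are set beside the same counts over all protein-coding genes, and with 1 group no test was made. Members and lists were chosen with earlier results of these data known. The text names all 9 genes, in each list the 3 genes with the highest lower percentile and every gene without a promoter peak, and the genes whose starts lie nearest to the flank regions given. A few genes of the lists are counted in them and not reported by name here. Overlap and window steps were tested on simulated data. Python 3.11.15, numpy 2.4.6, pandas 2.3.3, scipy 1.17.1, pysam 0.24.0 and matplotlib 3.10.9 were used.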

Additional observations from a re-analysis of the deposited data

How the results depend on the processing

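The count of 3 genes with a shared promoter region was 3 with a window of 500 bp, with the starts of basic protein-coding transcripts, with the stronger 50% of peaks and with an overlap of 75 bp, and 4 with hotspots, which added Dbh. With a window of 2.5 kb it was 6, adding Th, Dbh and Ddc, against 63.4% of all genes. Their nearest shared regions lay 1242 bp, 1088 bp and 1784 bp from an annotated start, which for Dbh and Ddc was an internal one. With 1 replicate alone the count ranged from 4 to 5, adding Th in each (scores 29 and 26) and Ddc without replicate 1 (score 52). The 7 genes with a body region were 6 with the stronger 50% of peaks, which left out Slc6a2, and 7 otherwise. The 136 shared regions in or near the genes were 84 with the stronger 50% of peaks and 237 with flanks of 100 kb, from the construction of these settings, and 95 to 174 under the others. Of the 4 genes without an open promoter above the 90th percentile of body density, 3 remained when regions in another gene or within 1 kb of its start were left out, with Ddc at percentile 88.6. The promoter window was not varied for this count, and Th, Dbh and Ddc would leave the class with a window of 2.5 kb. The lists held 27 to 32 open genes under every alternative, which were chosen after the data were seen. No paired analysis was possible because the samples form 1 group. The read depth is unknown, so an absent peak is a site not called at these depths and not shown to be inaccessible.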
